A study of Homo sapiens with 12 samples.

Results

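Exposed cells with and without a control hairpin were compared through 6 of the 12 RNA sequencing libraries of the series. These were the 3 libraries of rABS cells that had been transduced with shCtrl and the 3 of rABS cells that had not. All cells were OE33, a line from a human esophageal adenocarcinoma. The rABS cells were survivors of bile salts at 200 µM and pH 5.5, given for 20 minutes a day on 15 days, so both groups compared here shared that exposure. The rABS+shCtrl cells (shCtrl below) then received, by stable transduction, a short hairpin RNA that targets no gene, and the untransduced survivors (rABS) received no vector at all. Libraries were made from poly(A)-selected RNA of 3 independent biological replicates per group. The p-values of the edgeR fit rest on the spread between replicates within groups, estimated over all 12 libraries. If the shCtrl replicates came from a single transduction, these p-values do not cover the spread between transductions.

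The levels of 2 further groups stand beside these as reference points. Parental cells were untreated OE33 cells without a vector, and rABS+shAPE1 cells (shAPE1) were survivors transduced with a hairpin against APE1. The comparison bears on what the control arm of the series holds before any gene is targeted. The vector, the agent used to select transduced cells, the time spent in selection, and whether each line was a pool or a clone could not be read from the labels. Transduction, vector, hairpin, selection and added culture therefore cannot be told apart, and a group of rABS cells cultured for the same time without a vector was not analysed here. In bulk RNA, fewer cells of a kind and less RNA per cell cannot be told apart either.

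A short hairpin RNA is transcribed from DNA that a vector inserts into the genome and is cut by Dicer into a small RNA. Argonaute proteins carry that small RNA to matching messages. Whether Drosha with DGCR8 cuts the hairpin first depends on the vector design, which could not be read from the labels. Vector DNA and double-stranded RNA can be met by the sensors and restriction factors of innate immunity. Cells also differ with density, feeding and growth state: sterol synthesis responds to sterol supply, asparagine and serine synthesis to amino acid supply, immediate early genes to fresh growth factors, and histone and replication genes to the share of cells in S phase.

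The gene that the other hairpin targets was examined first. APEX1 (chromosome 14, 20455191 to 20457772, plus strand, GRCh38) encodes APE1, the endonuclease that cuts DNA at abasic sites. Its level was 81.8, 84.5 and 79.9 CPM (counts relative to the scaled library total as edgeR gives them) in the 3 rABS libraries and 62.0, 56.5 and 60.9 in the 3 shCtrl libraries. All 3 shCtrl values lay below all 3 rABS values. The shCtrl level was 72.8% of the rABS level (log2 fold change -0.46 ± 0.08 SE, 3 libraries a group, Benjamini-Hochberg adjusted p = 3.75e-05 by the quasi-likelihood test of edgeR). It stood near the Parental level of 54.7 ± 1.99 CPM and far above the shAPE1 level of 4.93 ± 0.819 CPM (mean ± SD, n = 3). An exact two-sided permutation test of the 6 libraries gave p = 0.1, the smallest value that 20 arrangements allow.

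Over all genes, 15805 had enough counts to be tested, and 5767 of them, 36.5%, were called at an adjusted p under 0.05. Of these 2832 were higher in shCtrl (17.9% of those tested) and 2935 were lower (18.6%). Most differences were small, with a median of 1.38-fold among the called genes, while 525 rose and 242 fell at least 2-fold. Among the 10719 genes with a mean of at least 5 CPM in either group, 126 rose and 134 fell at least 2-fold. The 3 libraries of one group lay wholly above or below the 3 of the other for 7655 genes, 48.4% of those tested. Library totals were 17042195 to 19477393 counts in rABS and 17875433 to 22377679 in shCtrl. Log2 CPM correlated at 0.988 to 0.991 within the groups and 0.976 to 0.980 between them.

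**Figure D1:**
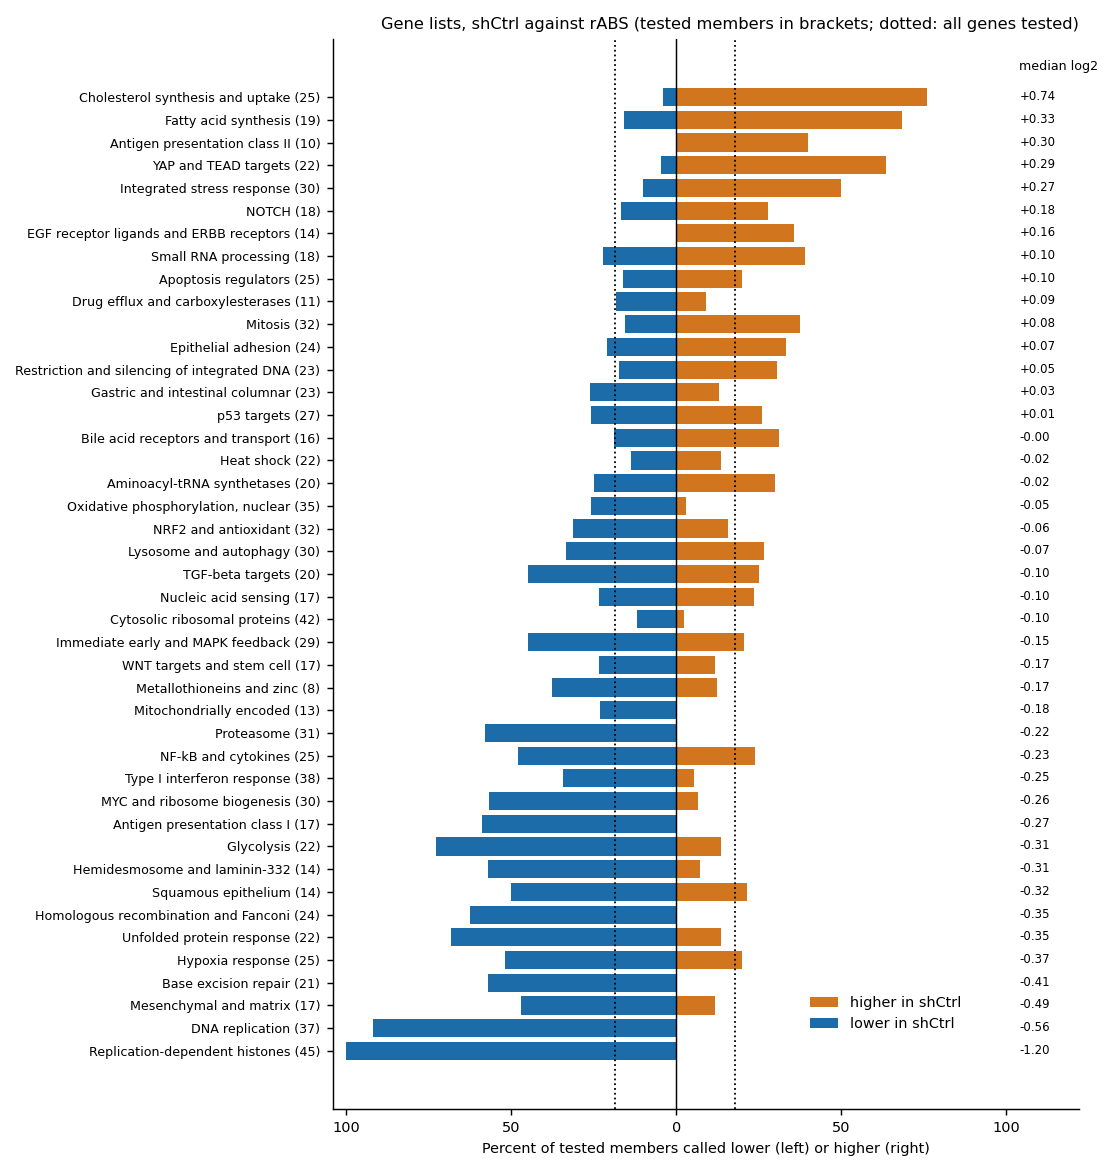
Percent of the tested members of each gene list that were called lower (blue, left) or higher (orange, right) in shCtrl than in rABS, with the median log2 fold change at the right and dotted lines at 17.9% and 18.6%, the shares over all genes tested. Replication-dependent histones (45 of 45 lower) and DNA replication (34 of 37 lower) lie at the bottom, and cholesterol synthesis and uptake (19 of 25 higher) lies at the top.

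Replication-dependent histone genes were lower in shCtrl throughout. These genes, clustered on chromosome 6, package newly made DNA and are transcribed in S phase. Of 45 tested, 45 fell, 41 of them at least 2-fold, with a median log2 fold change of -1.20, where the median over all genes tested was 0.02. By class, the medians were -1.02 for 5 linker H1 genes, -1.25 for 10 H2A genes, -1.20 for 11 H2B genes, -1.20 for 8 H3 genes and -1.17 for 11 H4 genes. None rose by edgeR, by DESeq2 or by limma-voom, nor at an unadjusted p under 0.05.

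H4C8, an H4 gene, stood at 178, 189.8 and 160.3 CPM in rABS and 52.1, 64.7 and 55.5 in shCtrl, a fall of 3.06-fold (log2 -1.61 ± 0.09, adjusted p = 2.24e-15). H2AC16 stood at 134, 173 and 136 CPM and then 43.6, 44.6 and 43.2, 3.38-fold lower (log2 -1.76 ± 0.10). In both genes the second rABS library was the highest and the 3 shCtrl libraries lay far below the lowest rABS library. The linker histone gene H1-1 fell 2.77-fold, from 222 ± 18.9 to 80.1 ± 10.96 CPM (mean ± SD, n = 3), and the more abundant H1-5 fell 2.02-fold, from 909.9 ± 74.9 to 450.0 ± 50.2. The largest falls of the list were H4C12, from 32.1 ± 6.16 to 4.66 ± 0.349 CPM (6.86-fold), and H4C11, from 18.2 ± 4.34 to 2.81 ± 0.522 (6.49-fold). H4C12 and H4C11 were higher in Parental, at 72.9 and 44.6 CPM, whereas H4C8, H2AC16 and H1-1 were lower there than in rABS, at 75.1, 77.6 and 47.6. Copies of histone genes are alike in sequence, so reads may be split between them.

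The messages of these genes end in a stem loop and mostly carry no poly(A) tail, and the libraries were poly(A)-selected. Small non-coding RNA, which also mostly lacks poly(A) tails, held 0.884% to 1.29% of counts in rABS and 0.747% to 0.805% in shCtrl. Its highest share was in the second rABS library. Of 81 small nucleolar RNA genes tested, 16 fell and none rose by edgeR or at an unadjusted p under 0.05 (DESeq2 was also at 0, limma-voom called 1 higher), with a median log2 fold change of -0.50. The share that fell, 19.8%, was near the 18.6% over all genes tested, where 17.9% rose. The part of RNA selection in the histone result was not tested. With the second rABS library left out, 44 histone genes were called lower.

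Because the histone genes moved together, the 250 bases before their annotated start sites were read (RefSeq promoters, build GRCh38.p14), on both strands, for the octamer ATTTGCAT, which is known as the site of OCT1 in H2B promoters. It was in 17 of 20 H2A and H2B promoters (85.0%), 1 of 21 H1, H3 and H4 promoters (4.76%) and 2.03% of all 27305 promoters. Stretches of 3 are shown, with the octamer or its reverse complement in capitals, because the divergent H2A and H2B genes share it. A match describes the letters of the window and does not show binding.
H2BC7 (chr6:26199379-26199438, plus strand): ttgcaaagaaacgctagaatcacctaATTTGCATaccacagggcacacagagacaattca
H2BC10 (chr6:26272860-26272919, plus strand): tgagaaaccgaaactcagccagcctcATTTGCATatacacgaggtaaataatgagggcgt
H2AC16 (chr6:27865085-27865144, plus strand): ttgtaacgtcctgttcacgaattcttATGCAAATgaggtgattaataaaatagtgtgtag

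H2BC7 fell from 442 ± 32.7 to 191 ± 3.53 CPM (2.31-fold) and H2BC10 from 206 ± 27.3 to 78.5 ± 3.29 CPM (2.63-fold, chosen for its sequence after its value was seen). Classes with and without the octamer had like medians, as given above by class.

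DNA replication genes were lower as well, by less. Of 37 genes for helicase, polymerase, clamp, origin and nucleotide supply, 34 fell and none rose (none by DESeq2 or limma-voom, nor at an unadjusted p under 0.05), with a median log2 fold change of -0.56. RRM2, the regulated subunit of ribonucleotide reductase, stood at 281, 286 and 282 CPM in rABS and 144, 127 and 133 in shCtrl, 2.10-fold lower (log2 -1.07 ± 0.07, adjusted p = 7.07e-14). The groups were far apart beside their own spread. CDC45, a part of the replicative helicase, fell 2.00-fold from 45.2 ± 2.17 to 22.5 ± 0.856 CPM, MCM2 1.75-fold from 331 ± 20.3 to 189 ± 3.69, and the sliding clamp gene PCNA 1.58-fold from 454 ± 6.08 to 287 ± 4.20. Parental cells lay below both groups for all of these, at 68.8, 15.8, 41.7 and 80.5 CPM.

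Many repair genes fell as well, and the rest were not called. Among 24 homologous recombination and Fanconi genes 15 fell and none rose (median -0.35), and among 21 base excision repair genes 12 fell and none rose (median -0.41). Neither list had a member that rose by DESeq2 or limma-voom or at an unadjusted p under 0.05. BRCA1 fell 1.48-fold, from 95.8 ± 0.702 to 64.8 ± 3.55 CPM, and FANCA 1.52-fold, from 74.1 ± 1.47 to 48.8 ± 1.85. UNG, the glycosylase that removes uracil from DNA, stood at 114, 112 and 117 CPM in rABS and 71.4, 67.8 and 69.5 in shCtrl (1.65-fold lower, log2 -0.72 ± 0.07, adjusted p = 2.32e-09). OGG1, the glycosylase for 8-oxoguanine, fell 1.797-fold, from 15.3 ± 1.93 to 8.49 ± 0.789 CPM, and APEX1 is itself 1 of the 12 lower genes.

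Mitosis genes were mixed. Of 32, 12 rose and 5 fell, with a median of 0.08. PTTG1, securin, stood at 19.6, 19.3 and 20.7 CPM in rABS and 43.1, 39.2 and 40.5 in shCtrl, 2.06-fold higher (log2 1.04 ± 0.10, adjusted p = 8.78e-10), and cyclin B2, CCNB2, rose 1.57-fold from 40.1 ± 1.86 to 63.0 ± 5.31 CPM. The kinesin gene KIF20A rose 1.55-fold, while ESPL1, the separase that PTTG1 restrains, fell 1.42-fold from 86.7 ± 3.66 to 61.2 ± 3.30 CPM. The count of higher members was smaller with some single libraries left out: 7 without the first rABS library, 7 without the third and 6 without the first shCtrl library. Over all genes tested, higher calls also fell, from 2832 to between 2228 and 2551, whichever of the 6 libraries was left out. The count of lower members was 3 without the third rABS or the second shCtrl library, 2 without the third shCtrl library and 9 after a correction for GC content and length.

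**Figure D2:**
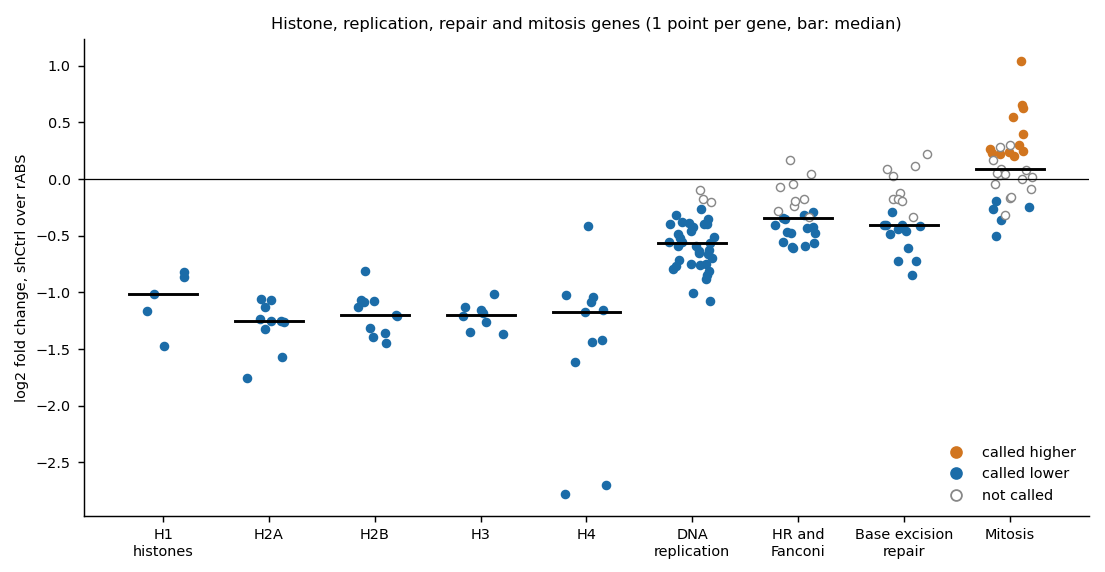
Log2 fold change of shCtrl over rABS for each tested histone, replication, repair and mitosis gene (1 point per gene, black bar at the median). All 45 histone genes lie below 0 with class medians from -1.25 to -1.02, replication genes centre at -0.56, and mitosis genes scatter on both sides of 0.

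The gene most lowered among those described was an epithelial stress keratin, and immediate early transcription factors fell with it. KRT6A, a keratin of activated and wounded squamous epithelium, stood at 8.71, 8.55 and 8.12 CPM in rABS and 0.528, 0.467 and 0.348 in shCtrl, an 18.6-fold fall (log2 -4.22 ± 0.31, adjusted p = 2.48e-12). It was nearly absent from Parental (0.0692 CPM) and low in shAPE1 (0.313), so the rABS libraries stood alone. Its near-identical neighbour KRT6B fell from 1.18 ± 0.224 to 0.192 ± 0.0841 CPM, and reads could be shared between them.

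FOS, which pairs with JUN to form the AP-1 transcription factor, stood at 44.1, 47.5 and 43.1 CPM in rABS and 5.76, 6.87 and 6.87 in shCtrl, a fall of 6.88-fold (log2 -2.78 ± 0.10, adjusted p = 6.45e-19). FOSB fell 8.52-fold, from 24.7 ± 3.58 to 2.89 ± 0.0610 CPM, and JUN, its partner, 3.86-fold from 65.3 ± 8.60 to 16.9 ± 0.215 CPM. The zinc finger factor EGR1 stood at 231, 199 and 216 CPM in rABS and 73.1, 83.9 and 72.7 in shCtrl, 2.81-fold lower. For each of these 4 genes every shCtrl library was below every rABS library. Parental levels of FOS, FOSB, JUN and EGR1 were 75.5, 30.6, 57.1 and 247 CPM, and shAPE1 levels were 4.15, 2.63, 33.8 and 56.6. Over the list of 29 immediate early and MAPK feedback genes 13 fell and 6 rose, with a median of -0.15. Those that rose were MYC (not called without the third rABS or the third shCtrl library), SPRED1, ETV5, PHLDA1, DUSP5 and DUSP4, of which SPRED1, DUSP4 and DUSP5 restrain MAPK signals, by at most 0.49 on the log2 scale (named after their values were seen).

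The CArG box, the element bound by serum response factor, was in 2 of 21 promoters of this list (9.52%), those of EGR1 and EGR2, and in 1.44% of all promoters, read as above. The EGR1 stretch is shown because that gene had the highest level of the 4 and its window holds 2 matches, both in the stretch and in capitals.
EGR1 (chr5:138465370-138465431, plus strand): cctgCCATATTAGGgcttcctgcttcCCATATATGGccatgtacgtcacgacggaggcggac

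Inflammatory genes under NF-kB fell more often than they rose, 12 against 6 of 25, with a median of -0.23. The neutrophil attracting chemokine CXCL2 stood at 52.7, 48.2 and 45.5 CPM in rABS and 12.9, 16.5 and 17.2 in shCtrl, 3.14-fold lower (log2 -1.65 ± 0.10, adjusted p = 2.57e-14). CXCL1 fell 2.22-fold, from 121 ± 5.74 to 54.3 ± 3.13 CPM, and the feedback genes NFKBIZ and TNFAIP3 fell 2.27- and 1.70-fold. IL1A, C3, LCN2, ICAM1, IL1B and IL18 were the 6 that rose, by 0.44 to 0.88 on the log2 scale (named after their values were seen). The inhibitors of differentiation ID1 and ID3, direct targets of BMP signals, fell 2.81-fold from 200.0 ± 16.2 to 71.1 ± 6.63 CPM and 2.57-fold from 19.6 ± 1.43 to 7.59 ± 0.460.

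**Figure D3:**
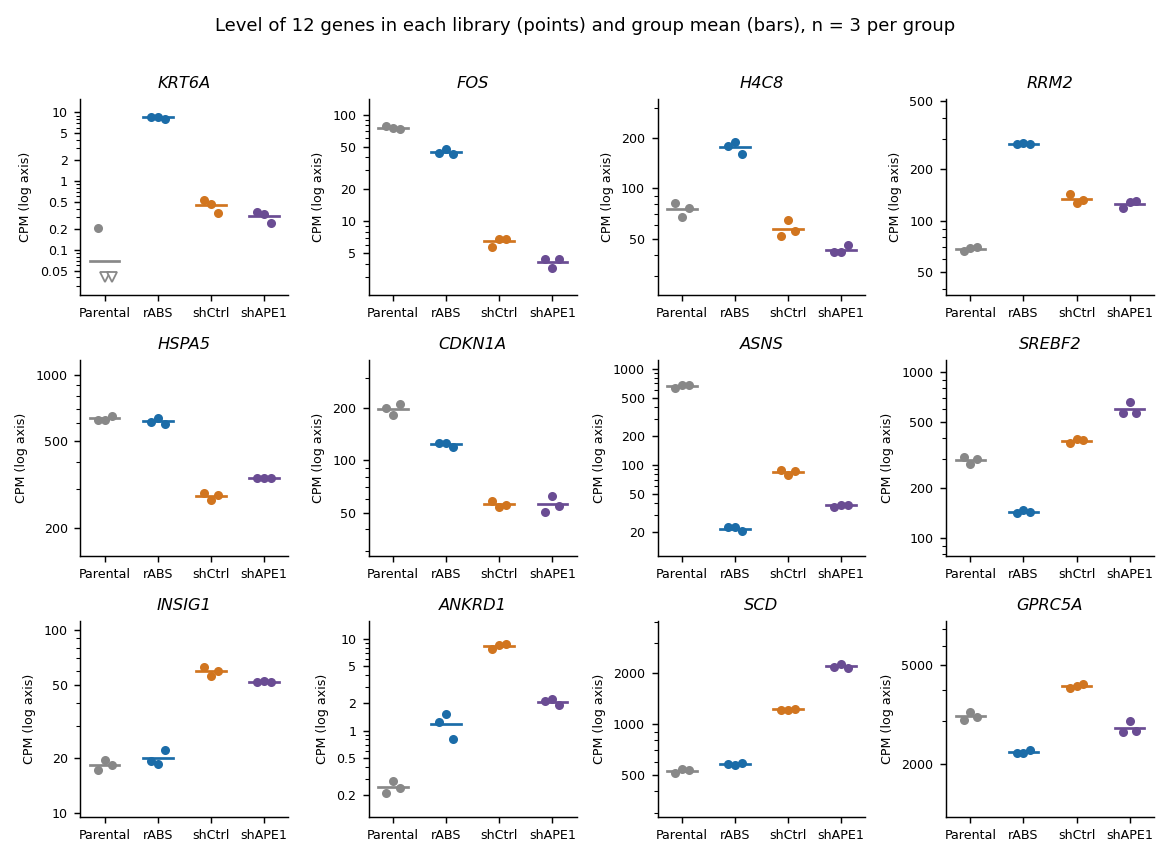
Level of 12 genes (CPM, log axis) in each of the 12 libraries (points) by group, with the mean of 3 libraries as a bar; open triangles mark Parental libraries with no KRT6A counts. In KRT6A, FOS, H4C8, RRM2, HSPA5 and CDKN1A the shCtrl libraries lie below the rABS libraries, and in ASNS, SREBF2, INSIG1, ANKRD1, SCD and GPRC5A they lie above.

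Genes of sterol supply rose together. Of 25 genes of cholesterol synthesis and uptake 19 rose and 1 fell (PMVK, not called without the second rABS library), with a median log2 fold change of 0.74, the highest of the lists drawn in the plot of gene lists. SREBF2, which encodes the transcription factor that drives the pathway, stood at 141, 149 and 144 CPM in rABS and 375, 398 and 390.1 in shCtrl, 2.68-fold higher (log2 1.42 ± 0.07, adjusted p = 3.69e-16). INSIG1, which holds that factor in the endoplasmic reticulum when sterols are plentiful, stood at 19.2, 18.4 and 22.03 and then 62.4, 56.0 and 60.1 CPM, 2.98-fold higher. In both genes the groups did not overlap and the spread within a group was small beside the difference.

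The enzymes MSMO1 and FDFT1, which act late in sterol synthesis and at squalene formation, rose 2.71-fold (from 29.6 ± 1.62 to 80.2 ± 6.27 CPM) and 2.41-fold (from 56.7 ± 3.70 to 137 ± 3.96). INSIG1 and MSMO1 had low Parental levels like those of rABS (18.3 and 22.5 CPM), whereas SREBF2 was at 297 CPM in Parental. With the APE1 hairpin the levels were 598 CPM for SREBF2, 52.2 for INSIG1 and 97.8 for MSMO1.

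Fatty acid genes moved in the same direction, with 13 of 19 higher, 3 lower and a median of 0.33. Without the third shCtrl library 1 member was lower. SCD, the desaturase that makes oleate, stood at 582, 573 and 588 CPM in rABS and 1214, 1212 and 1231 in shCtrl, 2.10-fold higher (log2 1.07 ± 0.06, adjusted p = 8.49e-15), and was among the most abundant genes that rose. The acetyl-CoA synthetase gene ACSS2 rose 1.83-fold, and the carboxylase gene ACACA rose 1.44-fold from 374 ± 20.5 to 538 ± 20.4 CPM. Of 18 cholesterol list promoters read, 1 (5.56%) held the sterol regulatory element TCACNCCAC on either strand, against 1.09% of all promoters; it is shown in capitals because it lies before SREBF2 itself.
SREBF2 (chr22:41832946-41833006, plus strand): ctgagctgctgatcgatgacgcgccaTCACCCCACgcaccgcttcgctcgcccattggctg

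Amino acid stress genes were partly higher, while chaperones of the endoplasmic reticulum were lower. Of 30 genes of the integrated stress response, through which ATF4 answers amino acid shortage, 15 rose and 3 fell (median 0.27). ASNS, asparagine synthetase, stood at 22.4, 22.5 and 20.5 CPM in rABS and 89.0, 78.7 and 85.8 in shCtrl, 3.88-fold higher (log2 1.96 ± 0.08, adjusted p = 1.07e-18). The shCtrl level was still far below the Parental level of 659.9 ± 29.9 CPM. ATF4 itself rose 1.65-fold, from 124 ± 4.23 to 205 ± 9.48 CPM, ADM2 rose 3.40-fold from 1.73 ± 0.666 to 5.80 ± 0.813, and PHGDH, which opens serine synthesis, rose 1.88-fold (PHGDH named after its value was seen). Other members fell or were not called: ATF5 fell 2.63-fold, from 21.5 ± 3.32 to 8.13 ± 1.54 CPM, and DDIT3, the death-linked factor CHOP, was at 3.797 ± 0.249 CPM in rABS and 4.07 ± 0.688 in shCtrl (adjusted p = 0.642).

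The element TGATGNAA, at which ATF4 and C/EBP partners are known to bind, was in 6 of 25 promoters of this list (24.0%), those of ASNS, ATF3, CEBPG, CHAC1, FGF21 and SLC1A5, and in 3.89% of all promoters, on either strand. ASNS and CHAC1 are shown because both rose, with the element or its reverse complement in capitals. CHAC1, which degrades glutathione, rose 2.06-fold from 8.18 ± 1.11 to 16.9 ± 2.51 CPM, while ATF3 and SLC1A5 were not called.
ASNS (chr7:97872443-97872502, minus strand): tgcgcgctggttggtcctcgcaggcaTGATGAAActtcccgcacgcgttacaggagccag
CHAC1 (chr15:40953236-40953295, plus strand): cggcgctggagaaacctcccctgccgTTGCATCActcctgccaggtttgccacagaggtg

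Of 22 genes of the unfolded protein response 15 fell and 3 rose (median -0.35). HSPA5, the main chaperone of the endoplasmic reticulum, stood at 609, 637 and 597 CPM in rABS and 288, 268 and 281 in shCtrl, 2.20-fold lower (log2 -1.14 ± 0.06, adjusted p = 3.63e-15). Parental cells were at 631 ± 15.6 CPM, near the rABS level, and shAPE1 at 337 ± 1.61. Its partners DNAJB11, MANF and HYOU1 fell 1.79-, 1.77- and 1.44-fold. HSP90B1, EDEM1 and ERN1 were the 3 that rose, by 0.22 to 0.44 on the log2 scale (named after their values were seen).

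Growth and supply genes were mostly lower. Glycolysis had 16 of 22 members lower and 3 higher (median -0.31), with PFKFB3, a regulator of phosphofructokinase, at 182, 197 and 175 CPM in rABS and 91.3, 103.6 and 104.3 in shCtrl (1.85-fold lower, adjusted p = 1.75e-11). The exceptions were HK1, ALDOC and the glucose transporter gene SLC2A3. SLC2A3 rose 3.50-fold from 2.23 ± 0.447 to 7.91 ± 1.18 CPM, and ALDOC rose 2.08-fold from 48.1 ± 1.595 to 99.9 ± 2.19. Hypoxia response genes had 13 of 25 lower and 5 higher (median -0.37), among them the prolyl hydroxylase gene EGLN3, 2.18-fold lower. Proteasome subunits had 18 of 31 lower and none higher (none by DESeq2 or limma-voom, nor at an unadjusted p under 0.05; median -0.22), with PSMC3 falling 1.71-fold from 84.3 ± 6.49 to 49.2 ± 0.709 CPM. MYC and ribosome biogenesis genes had 17 of 30 lower and 2 higher (median -0.26; 1 higher without the first or the third rABS or the first or the third shCtrl library), with ODC1, ornithine decarboxylase, falling 1.63-fold from 168 ± 2.10 to 103 ± 8.48 CPM.

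p53 target genes split evenly, 7 higher and 7 lower of 27, with a median of 0.01. CDKN1A, the cell cycle inhibitor p21, stood at 127, 127 and 120.2 CPM in rABS and 58.2, 53.7 and 55.1 in shCtrl, 2.24-fold lower (log2 -1.16 ± 0.08, adjusted p = 2.97e-13), below the Parental level of 198 ± 13.9. BAX and AEN, which promote cell death, fell 1.43- and 1.61-fold, and CCNG1 rose 1.47-fold. Without the first shCtrl library 3 members were called lower.

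Genes that answer foreign nucleic acid showed no common rise. Of 38 type I interferon response genes 2 rose and 13 fell (median -0.25). IFIT2 stood at 4.44, 4.60 and 4.03 CPM in rABS and 8.61, 7.68 and 9.95 in shCtrl, 2.01-fold higher (log2 1.00 ± 0.16, adjusted p = 7.91e-06), and DDX60 was the other that rose (log2 0.33, named after its value was seen). Without the second rABS library 1 rose. IRF7, the master factor of the interferon response, fell 1.94-fold from 28.9, 30.1 and 25.01 CPM in rABS to 13.5, 17.4 and 12.2 in shCtrl, and the RNA-sensing synthetase gene OAS1 fell 1.46-fold from 49.1 ± 1.95 to 33.5 ± 0.226. ISG15 and IFIT1, common markers of the response, were not called (log2 -0.22 and 0.05, adjusted p = 0.143 and 0.897). Of 17 nucleic acid sensing genes 4 rose and 4 fell (median -0.10), and without the third shCtrl library 2 rose.

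Restriction and silencing factors held the APOBEC3 family, whose members deaminate cytosine in foreign DNA. APOBEC3C stood at 60.8, 59.4 and 64.1 CPM in rABS and 112, 123 and 111 in shCtrl, 1.88-fold higher (log2 0.91 ± 0.08, adjusted p = 4.15e-11). APOBEC3F rose 2.69-fold from 3.91 ± 0.639 to 10.5 ± 0.832 CPM and APOBEC3B 1.62-fold from 61.4 ± 4.99 to 99.8 ± 8.01. APOBEC3D and APOBEC3G were also called higher but stayed under 1 CPM in each of the 6 libraries. The family shares sequence, so reads could be split. APOBEC3B and ATF4 are the first and last genes of a stretch of 15 neighbouring tested genes on chromosome 22. Its median log2 fold change was 0.70, with 8 genes higher and 1 lower. Over the list 7 of 23 rose and 4 fell (median 0.05), and 4 rose without the second rABS library. TRIM28, a corepressor that silences integrated viral DNA, fell 1.48-fold from 606 ± 26.9 to 410.0 ± 14.6 CPM.

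Among 18 genes of small RNA processing 7 rose and 4 fell (median 0.10). DGCR8, the RNA-binding partner of Drosha, stood at 51.7, 49.8 and 49.1 CPM in rABS and 19.4, 25.8 and 20.5 in shCtrl, 2.29-fold lower (log2 -1.19 ± 0.10, adjusted p = 9.56e-11). Its Parental level, 13.3 ± 1.61 CPM, and its shAPE1 level, 21.2 ± 0.909, lay with or below shCtrl, so the rABS libraries were the high ones. AGO2, the slicing Argonaute, rose 1.47-fold from 345 ± 25.7 to 507 ± 15.0 CPM. Neighbours of both genes moved the same way. DGCR8, like CDC45, lies in a stretch of 15 tested genes on chromosome 22 with a median of -0.53 (9 lower, 0 higher). AGO2 is the first of 25 tested genes on chromosome 8 with a median of 0.50 (12 higher, 1 lower). The part of position in these changes was not tested. Without the second rABS library 4 members rose, and after correction for GC content and length 7 fell. DROSHA and DICER1 were not called (log2 -0.13 and -0.00, adjusted p = 0.153 and 0.976).

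Antigen presentation genes were counted by class. Of 17 class I genes 10 fell and none rose by edgeR, DESeq2 or limma-voom (median -0.27), while 2 were higher at an unadjusted p under 0.05, ERAP2 and HLA-E. The count of higher members was 1 to 3 in 8 of 15 alternatives: 3 after correction for GC content and length, 2 in a fit of the 6 libraries alone, with upper-quartile scaling, under a filter of 1 CPM in 3 libraries or without the second rABS library, and 1 without the third rABS, the first shCtrl or the second shCtrl library. HLA-B stood at 875, 970.3 and 845 CPM in rABS and 523, 556 and 564 in shCtrl, 1.64-fold lower (log2 -0.71 ± 0.07, adjusted p = 1.56e-09). HLA genes are alike and vary between genomes, so their reads may be lost or shared. Of 10 class II genes 4 rose from low levels and none fell (none by DESeq2 or limma-voom, nor at an unadjusted p under 0.05). The master regulator CIITA was at 2.26 ± 0.575 CPM in rABS and 4.32 ± 1.26 in shCtrl (adjusted p = 0.00178), and 2 class II genes rose without the first rABS library or under a filter of 1 CPM in 3 libraries.

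Genes of cell shape and surface signals changed in both directions. Of 22 targets and partners of YAP and TEAD, which respond to density and stretch, 14 rose and 1 fell (median 0.29). ANKRD1 rose most of all genes that met the naming rule, from 1.25, 1.51 and 0.807 CPM in rABS to 7.71, 8.48 and 8.66 in shCtrl, 7.00-fold (log2 2.81 ± 0.23, adjusted p = 2.17e-11). It was lower still in Parental (0.241 CPM) and intermediate in shAPE1 (2.06). The GTPase-activating gene DLC1 rose 2.29-fold from 62.2 ± 4.92 to 143 ± 4.497 CPM and the receptor tyrosine kinase gene AXL 1.69-fold from 60.8 ± 2.52 to 103 ± 4.53. Of the CCN family targets, CCN2 was the 1 that fell, 2.42-fold from 7.40 ± 1.61 to 3.03 ± 0.731 CPM, and CCN1 was at 66.2 ± 3.45 and 60.3 ± 4.10 CPM (adjusted p = 0.174; both named after their values were seen). With GC content and length corrected 2 members of the list fell.

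Of 20 TGF-beta targets 5 rose and 9 fell (median -0.10). TGFB2, a ligand, stood at 9.11, 7.97 and 8.77 CPM in rABS and 19.7, 19.4 and 20.2 in shCtrl, 2.29-fold higher (log2 1.20 ± 0.11, adjusted p = 7.84e-10), with no overlap between the groups.

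EGF receptor ligands and ERBB genes had 5 of 14 higher and none lower (none by DESeq2 or limma-voom, nor at an unadjusted p under 0.05; median 0.16). The ligand genes EREG and AREG rose 1.69-fold, from 310.3 ± 30.9 to 524 ± 25.8 CPM, and 1.61-fold, from 74.1 ± 7.98 to 119 ± 3.66, to levels below those of Parental (1449 and 362 CPM). The receptor genes EGFR and ERBB2 were not called (log2 0.12 and -0.02, adjusted p = 0.137 and 0.822).

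Genes for adhesion to the basement membrane were mostly lower. Of 14 hemidesmosome and laminin-332 genes 1 rose and 8 fell (median -0.31), and 2 rose without the first shCtrl library. LAMA3, a laminin chain, stood at 213, 198 and 215 CPM in rABS and 126, 127 and 123 in shCtrl, 1.66-fold lower (log2 -0.74 ± 0.06, adjusted p = 1.11e-10), and LAMB3 fell 1.40-fold. Of 17 tested mesenchymal and matrix genes 8 fell and 2 rose (median -0.49), with the collagenase gene MMP1 falling 3.60-fold from 26.5 ± 3.22 to 7.39 ± 0.912 CPM and tenascin C, TNC, 2.72-fold from 27.6 ± 2.54 to 10.2 ± 1.28. Of 14 squamous genes 7 fell and 3 rose (median -0.32), and KRT15, a keratin of basal cells, rose 1.93-fold from 52.8 ± 2.43 to 102 ± 7.88 CPM.

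The remaining lists showed smaller or mixed changes. Oxidative phosphorylation genes of the nucleus had 1 higher and 9 lower of 35 (4 lower without the second rABS library, 5 without the first shCtrl library, 14 after correction for GC content and length), and none were higher when any single one of the 6 libraries was left out. Cytosolic ribosomal protein genes had 1 higher and 5 lower of 42, with 2 to 9 lower when any single one of the 6 libraries was left out. None of them was higher without the first or the third rABS library or any 1 shCtrl library, nor by DESeq2, and 2 were higher after correction for GC content and length. Of the 13 mitochondrially encoded genes tested 3 fell and none rose (none by DESeq2 or limma-voom, nor at an unadjusted p under 0.05), and MT-ND3 fell 2.03-fold from 596 ± 41.3 to 293 ± 5.11 CPM. NRF2 and antioxidant genes had 5 higher and 10 lower of 32. These were 2 higher without the second rABS library, and 3 higher and 6 lower without the third shCtrl library. Lysosome and autophagy genes had 8 higher and 10 lower of 30. Heat shock genes had 3 higher and 3 lower of 22 (5 higher after correction for GC content and length), and aminoacyl-tRNA synthetases 6 higher and 5 lower of 20 (3 lower without the second or the third shCtrl library).

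Epithelial adhesion genes had 8 higher and 5 lower of 24, with 3 lower without the third shCtrl library. Gastric and intestinal columnar genes had 3 higher and 6 lower of 23, with 8 higher after correction for GC content and length, and the gel-forming mucin gene MUC2 fell 2.57-fold from 12.96 ± 2.20 to 5.01 ± 0.865 CPM. Bile acid receptor and transport genes had 5 higher and 3 lower of 16, and 3 higher without the first rABS library, the third rABS library, the second shCtrl library or the third shCtrl library. CYP24A1, which breaks down vitamin D, rose 1.72-fold from 282 ± 10.9 to 486 ± 40.8 CPM. NOTCH genes had 5 higher and 3 lower of 18, and WNT targets 2 higher and 4 lower of 17 (1 higher when any single one of the 6 libraries was left out, 2 lower without the second rABS library, 1 without the third shCtrl library). Apoptosis regulators had 5 higher and 4 lower of 25, with 3, 3 and 2 higher without the first rABS, the second rABS and the second shCtrl library. Metallothionein and zinc genes had 1 higher and 3 lower of 8 (1 lower without the second rABS library, 5 after correction for GC content and length), and drug efflux and carboxylesterase genes 1 higher and 2 lower of 11 (2 higher without the first shCtrl library).

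Some of the largest changes lay outside these lists. ACSM3, a medium-chain acyl-CoA synthetase, stood at 1.65, 1.34 and 1.11 CPM in rABS and 7.50, 7.04 and 9.66 in shCtrl, 5.90-fold higher (log2 2.56 ± 0.19, adjusted p = 2.6e-12). MUC3A, a membrane mucin, rose 4.39-fold from 10.0 ± 1.05 to 44.0 ± 4.77 CPM, the peptidylarginine deiminase gene PADI3 4.36-fold from 2.56 ± 0.0594 to 11.2 ± 0.520, and the AP-1 repressor gene JDP2 3.49-fold from 4.38 ± 0.183 to 15.4 ± 1.63. All 4 also stood higher in Parental than in rABS, at 23.6, 40.1, 54.4 and 47.0 CPM. GSDMB, a gasdermin, rose 3.45-fold. The non-coding genes AL512274.1 and ADIRF-AS1 rose 4.05- and 3.62-fold, and because the strand setting of the counting is not given, reads of ADIRF-AS1 and its antisense partner cannot be told apart.

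Among the falls, SNPH, syntaphilin, which anchors mitochondria, stood at 75.8, 77.3 and 75.8 CPM in rABS and 16.3, 18.5 and 14.4 in shCtrl, 4.64-fold lower (log2 -2.22 ± 0.10, adjusted p = 1.53e-17). The shCtrl level was close to the Parental level of 14.6 ± 0.572 CPM. MYL9, a myosin light chain, fell 4.66-fold from 18.3 ± 1.68 to 3.90 ± 0.791 CPM, and TCIM 3.92-fold from 6.88 ± 1.35 to 1.72 ± 0.687. The variant U1 small nuclear RNA gene RNVU1-6 and the unnamed transcript ENSG00000279086 fell 3.62- and 3.52-fold, from 6.04 ± 0.916 and 6.07 ± 0.925 CPM.

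The most abundant genes that changed at least 1.5-fold give the change by mass of RNA. GPRC5A, an orphan receptor of the epithelial surface, stood at 2227, 2219 and 2279 CPM in rABS and 4070.2, 4149 and 4198 in shCtrl, 1.85-fold higher (log2 0.88 ± 0.06, adjusted p = 9.72e-13), with Parental between them at 3127 ± 118. EZR, ezrin, which ties the membrane to actin, rose 1.51-fold from 2079 ± 27.6 to 3146 ± 68.0 CPM. The nuclear RNA MALAT1 rose 2.00-fold, from 692 ± 109 to 1381 ± 87.5, and its rABS libraries spread from 579 to 796 CPM. SRRM2, a splicing factor, and TMSB4X, which binds actin monomers, rose 1.58- and 1.55-fold. On the lower side the secreted protease gene KLK6 fell 1.89-fold from 1595 ± 43.8 to 842 ± 31.0 CPM, the glycogen phosphorylase gene PYGB 1.83-fold from 1087 ± 56.2 to 592 ± 3.60, and MT-ND2 1.51-fold from 1997 ± 215 to 1318 ± 130.2.

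More genes were detected in shCtrl than in rABS, and long non-coding RNA genes had median fold changes above 0. Genes with at least 1 count numbered 22540 to 23547 in rABS and 24426 to 26318 in shCtrl. At an equal depth of 17042195 counts these were 22540 to 23347 and 24293 to 25411, with no overlap. The share of counts in long intergenic and antisense RNA was 0.604% to 0.662% in rABS and 0.792% to 0.839% in shCtrl. The median log2 fold change was 0.27 for 623 lincRNA genes, 0.30 for 1030 antisense genes and -0.01 for 12661 protein-coding genes. Of the antisense genes 134 rose and 48 fell, and of the lincRNA genes 95 rose and 32 fell. The shares that rose, at most 15.2% (lincRNA), lay below the 17.9% over all genes tested. The shares that fell, 4.66% of antisense and 5.14% of lincRNA genes, lay further below the 18.6% over all genes tested. Mitochondrial transcripts held 2.69% to 3.65% of counts in rABS and 2.62% to 3.30% in shCtrl.

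**Figure D4:**
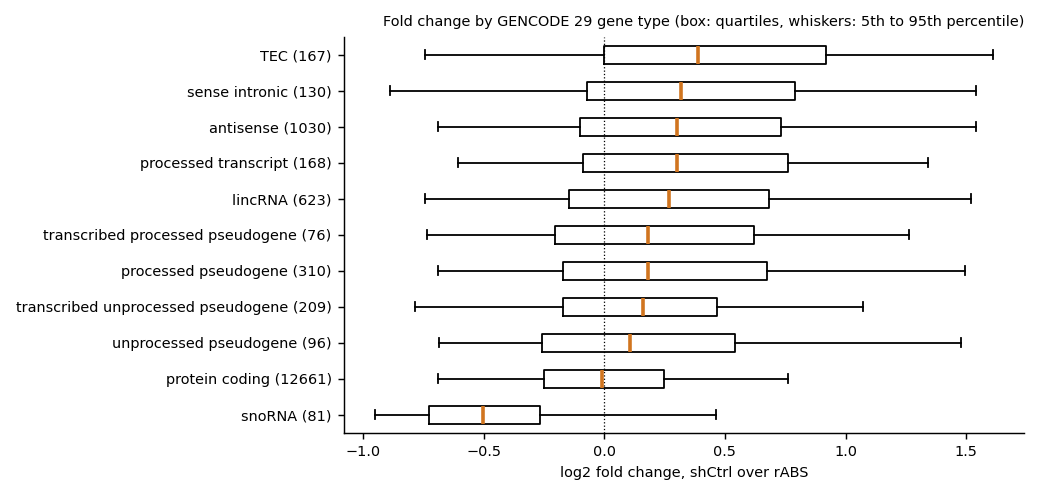
Log2 fold change of shCtrl over rABS by GENCODE 29 gene type, with the number of tested genes in brackets (box at the quartiles, line at the median, whiskers from the 5th to the 95th percentile). Antisense (median 0.30) and lincRNA (0.27) genes lie to the right of protein-coding genes (-0.01), and small nucleolar RNA genes (-0.50) lie to the left.

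Base composition and transcript length moved with the comparison. Median log2 fold changes fell from 0.11 in the fifth of genes with the lowest GC content to -0.08 in the fifth with the highest, and were 0.11 in the fifth with the longest transcripts. Called shares moved more: 23.2% were higher and 9.43% lower in the fifth with the lowest GC content, against 13.2% and 26.2% in the fifth with the highest, and 30.4% were higher in the fifth with the longest transcripts against 10.0% in the shortest. The shares over all genes set beside the lists therefore do not hold alike for lists of long, short, GC-rich or GC-poor genes. Single pairs of libraries of one group differed along GC content by as much, with Spearman coefficients across genes of -0.37 to 0.41 within groups and -0.33 to 0.09 between them. These coefficients describe the libraries, since genes are not independent replicates. With GC content and length corrected, 45 histone, 35 replication and 15 unfolded protein response genes were lower and 20 cholesterol genes were higher.

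Along the genome (GRCh38), medians over windows of 25 neighbouring tested genes were lowest in the histone clusters of chromosome 6, at -1.12 from 27125897 to 28081130 (20 of 25 genes lower, all of them histone genes) and -1.12 from 26158146 to 26453415. Apart from windows with histone genes the lowest was on chromosome 17, from 81239239 to 81891586, at -0.454, with 13 genes lower and 1 higher. Close to it was chromosome 22, from 18605815 to 20127357, at -0.450, with 12 lower and 2 higher. The highest was on chromosome 7, from 100159244 to 100615384, at 0.60, with 12 genes higher and 2 lower, followed by chromosome 1, from 205228176 to 207081024, at 0.54, with 16 higher and 1 lower. Windows of 15 genes placed the highest median elsewhere, on chromosome 12 (0.83, 5 higher and 1 lower). They placed the lowest without histone genes on chromosome 22, from MRPL40 to RANBP1 (19431902 to 20127357, -0.53, 9 lower and 0 higher). Which windows were highest and lowest thus depended on the width. By whole chromosome the medians ran from -0.05 for X to 0.13 for chromosome 18.

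The epithelial label held in both groups. The 9 epithelial markers, among them KRT19, KRT8 and EPCAM, summed to 15560 to 18290 CPM in rABS and 15572 to 17161 in shCtrl (unscaled library totals here and below), with 1 of 9 higher (4 after correction for GC content and length) and 3 lower. Of 11 fibroblast markers 2 were tested and 1 rose, and the sum was 6.83 to 7.50 CPM in rABS and 13.1 to 14.2 in shCtrl, carried by COL1A1. COL3A1, LUM, PDGFRA and POSTN had no count in any of the 6 libraries. Of 11 leukocyte markers 5 were tested, 2 fell and none rose (none by DESeq2 or limma-voom, 1 at an unadjusted p under 0.05, LYZ). Without the second or the third rABS library or any 1 shCtrl library 1 was lower, and without the third rABS library 1 was higher. The sum was 24.7 to 29.9 and 14.6 to 17.2 CPM, carried by CD79A, while CD3D, MS4A1 and NKG7 had no count. The 9 endothelial markers summed to 0.873 to 1.68 and 0.559 to 1.65 CPM, with ERG at 0.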

How the data were processed

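Poly(A)-selected RNA of 12 OE33 libraries was sequenced, with 3 per group, and the 6 rABS and rABS+shCtrl libraries were compared. The authors deposited whole-number read counts per gene. Per the submitters' processing notes the tools were Trimmomatic 0.36, STAR 2.5.2b and featureCounts of Subread 1.5.2 with build GRCh38. Which gene annotation was counted, whether strand was used, and how multiply mapped reads were treated are not given in the sources used.

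From these counts edgeR 4.0.16 (R 4.3.3) was fitted to all 12 libraries with TMM scaling, a low-count filter (at least 10 counts, 15 in total) and the robust quasi-likelihood test, and p-values were adjusted by Benjamini-Hochberg over the 15805 genes tested, with calls at 0.05. Positive log2 fold changes mean higher in rABS+shCtrl, and a standard error is the log2 fold change divided by the root of its F statistic. CPM are per TMM-scaled library size. Gene symbols and positions came from the reference annotation, with gene types of GENCODE 29: of 57500 gene IDs 56410 had a symbol.

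The comparison and the gene lists were chosen with earlier results of these data known. The text names APEX1 and, by rule, the 12 largest rises and 12 largest falls among called genes of at least 5 CPM without overlap, the 6 most abundant called genes changed at least 1.5-fold in each direction, and up to 4 members of each list by adjusted p. CCN1, CCN2, CHAC1, DDIT3, DDX60, DICER1, DROSHA, EGFR, ERBB2, H2BC10, IFIT1, ISG15 and PHGDH were added after their values were seen, as were members named only as exceptions. Alternatives were other scalings, filters and tools (DESeq2 1.42.0, limma 3.58.1), the 6 libraries alone, a fold threshold, a replicate block, single libraries left out and, added after seeing the data, a correction for GC content and length. Some results that the rule would name are not reported here.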

Additional observations from a re-analysis of the deposited data

How the results depend on the processing

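With any single one of the 6 libraries left out, 2228 to 2551 genes were higher and 2422 to 2649 lower, 415 to 506 and 227 to 265 of them at least 2-fold, and the APEX1 log2 fold change was -0.49 to -0.42. Other scalings, filters, tools and the correction for GC content and length (chosen after seeing the data) gave 2601 to 3180 higher and 2745 to 3399 lower. Testing against a 1.5-fold threshold left 250 higher and 219 lower, 203 and 153 at least 2-fold, fewer by construction. No gene called in the report was called in the opposite direction under any of these settings. Of the genes named by the rule, MT-CO3, MT2A, HLA-DPA1, CD14, HLA-DMB, RPL38, RPL8, AXIN2, MYC, RNF43, MT1X and EPCAM lost their call under some setting other than the fold threshold, under which single genes were not followed.

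Same-numbered replicates did not pair: their deviations from the group means correlated at -0.04, 0.05 and -0.01, and not every library correlated best with its own number. With the replicate block 2676 genes were higher and 2781 lower, 489 and 236 at least 2-fold, and APEX1 was at -0.46 (adjusted p = 0.000121). Without an untransduced culture kept for the same time, the comparison cannot separate the hairpin, its vector and selection, and genes of few counts carry the widest errors.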

Other observations

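Circadian clock genes were mostly higher in shCtrl. They include genes of the circadian oscillator and genes that the oscillator drives. In the oscillator CLOCK and BMAL1 drive the PER, CRY and NR1D genes that in turn repress them. The list was drawn up after its members' values had been seen, so its counts are a description: of 18 tested 13 were higher and 3 lower, with a median log2 fold change of 0.60, against 17.9% higher and 18.6% lower over all genes tested. PER1, a repressor of the oscillator, stood at 25.9, 25.7 and 25.2 CPM in rABS and 62.5, 70.0 and 64.8 in shCtrl, 2.57-fold higher (log2 1.36 ± 0.09, edgeR quasi-likelihood, adjusted p = 8.03e-14). The PAR-domain factor genes TEF and DBP, which the oscillator drives, were 3.22- and 2.69-fold higher, from 6.91 ± 0.794 to 22.3 ± 1.76 and from 7.39 ± 0.250 to 19.8 ± 2.66 CPM. The nuclear receptor gene NR1D1 was 2.31-fold higher, from 23.05 ± 0.710 to 53.1 ± 4.80 CPM. In these 4 genes no shCtrl library overlapped a rABS library.

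BMAL1 was lower, at 9.40, 9.89 and 9.93 CPM in rABS and 7.18, 5.90 and 7.12 in shCtrl (1.45-fold, adjusted p = 0.00342), as were NFIL3 and BHLHE40. Parental levels were 167 CPM for PER1, 21.6 for TEF, 14.1 for DBP and 100.9 for NR1D1, and shAPE1 levels were 65.0, 17.7, 17.3 and 27.6.

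The E-box CACGTG, at which CLOCK and BMAL1 bind, was in 6 of 18 clock promoters (33.3%), those of BHLHE40, BHLHE41, CIART, NR1D2, PER1 and TEF, and in 7.73% of all 27305 promoters, within 250 bases before the RefSeq start (GRCh38.p14). The motif reads the same on both strands. PER1 and TEF are shown, with the E-box in capitals, because both were higher. BHLHE40, also among the 6, was lower, and DBP and NR1D1, which were higher, were not among the 6.
PER1 (chr17:8152546-8152603, minus strand): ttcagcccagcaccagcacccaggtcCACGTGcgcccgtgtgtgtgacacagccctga
TEF (chr22:41367234-41367291, plus strand): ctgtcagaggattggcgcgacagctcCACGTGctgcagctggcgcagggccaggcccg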
